A study of Mus musculus with 10 samples.

Results

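Transcripts of 10 genes of the extracellular matrix were followed through RNA sequencing of 2 mouse tumour lines, 8 of them encoding matrix glycoproteins and 2 encoding small leucine-rich proteoglycans. The glycoprotein genes were Fn1, Tnc, Tnr, Thbs1, Sparc, Tgfbi, Postn and Sned1, and the proteoglycan genes were Prelp and Bgn. Each was found in the count table by the Ensembl identifier that carries its symbol, so that 10 of 60676 rows were taken. The genes were chosen by their protein family and with their CPM (counts per 1000000) and their differences over the groups and lines of these libraries in view, so their differences are given as a description. Where a member is said to be called, it passed the test fitted over all genes, and since the choice knew these differences a call is no independent evidence of them. The rule itself holds no threshold. The lines were MC38, from a colon carcinoma, and B16, from a melanoma, both with a knockdown of Sdc1, which encodes the cell surface proteoglycan syndecan-1. All 10 libraries, controls included, shared that knockdown and a 24 h exposure to interferon gamma (IFNγ, 10 ng/ml). MC38 had 3 groups of 2 libraries: the knockdown alone, the knockdown with a mutant of Sdc1 called c30 and the knockdown with a mutant called ect, neither described further in the labels. The 4 B16 libraries split evenly into knockdown cells and knockdown cells that also had wild-type Sdc1. Nothing in the labels tells separate cultures from repeats of 1 culture, or a clone from a pool, so the spread behind each p-value is that of the samples at hand and may be technical. No library with unaltered Sdc1, without IFNγ or with an empty vector was analysed here.

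Matrix glycoproteins are secreted, assembled outside the cell and bound by integrins and by the heparan sulphate chains of proteoglycans such as the syndecans. Fibronectin forms fibrils that other matrix proteins settle on, while tenascins, thrombospondins, SPARC, periostin and the TGF-beta-induced protein modulate adhesion more than they bear load. Small leucine-rich proteoglycans bind collagen fibrils and growth factors through their repeats. Several of these genes are well-known targets of TGF-beta in fibroblasts.

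The libraries held 11349447 to 15041133 counts, so a count of 0 allows up to 0.199 to 0.264 CPM, where CPM is per library total, taken as 3 counts per library and covering counting error only. Sdc1 stood at 24.5 and 29.99 CPM in the MC38 knockdown, 97.0 and 99.5 with c30, 22.4 and 25.2 with ect, 40.7 and 43.1 in the B16 knockdown and 71.1 and 56.9 with the wild-type form. The ect libraries thus lay within or below the range of the knockdown, and whether the gene count covers the ect transcript is not known here. All 7 melanocyte markers reached 1 CPM in each B16 library, where they summed to 13499 to 14271 CPM. Of 8 epithelial markers 1 or 2 did so in the MC38 libraries. Cdh1 had 13.7 and 13.9 CPM in the MC38 knockdown, 9.25 and 7.31 CPM with c30 and 5.53 and 6.85 CPM with ect. Krt8 had 0.997 to 1.94 CPM in MC38, and the others, Epcam and Cdx2 among them, stayed under 1 CPM in all 6 libraries. Leukocyte markers summed to at most 1.20 CPM in any library. The melanocyte markers summed to 12.9 CPM in MC38 c30 replicate 2 and to 6.33 to 7.93 CPM in the other 5 MC38 libraries. In bulk libraries fewer cells that express a gene and less of its RNA per cell cannot be told apart.

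The stretches of DNA before 5 of the genes are shown because these genes differed most between c30 and the knockdown among the members with a promoter entry, and because 3 of them (Tnc, Tnr and Tgfbi) were close to 0 in B16 while Sned1 and Prelp were expressed in both lines. Entries were found for 8 of the 10 members in RefSeq's table on GRCm38.p6, a build other than the GRCm39 of the deposited counts. Each sequence is the 250 bases before the annotated start, 5′ to 3′ on the strand of the gene, and for Tnc the start listed first of 2. Capitals mark letters that match a SMAD box (CAGAC), a GC box (GGGCGG) or a TATA box (TATAAA), searched on both strands. No capitals overlap, and a further search for TTCNNNGAA, the core of the element through which IFNγ acts, found no match in these windows.
Tnc, chr4:64047016-64047265, minus strand: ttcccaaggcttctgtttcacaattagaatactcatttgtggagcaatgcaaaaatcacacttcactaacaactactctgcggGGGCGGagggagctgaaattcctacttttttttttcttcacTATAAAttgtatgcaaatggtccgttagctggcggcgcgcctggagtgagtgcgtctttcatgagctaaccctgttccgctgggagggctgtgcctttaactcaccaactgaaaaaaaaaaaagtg
Tnr, chr1:159523519-159523768, plus strand: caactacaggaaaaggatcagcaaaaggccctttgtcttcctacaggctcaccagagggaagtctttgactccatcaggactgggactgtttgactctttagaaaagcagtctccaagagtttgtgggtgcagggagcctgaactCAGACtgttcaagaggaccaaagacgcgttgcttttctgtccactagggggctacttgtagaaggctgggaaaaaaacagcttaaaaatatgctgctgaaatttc
Tgfbi, chr13:56609336-56609585, plus strand: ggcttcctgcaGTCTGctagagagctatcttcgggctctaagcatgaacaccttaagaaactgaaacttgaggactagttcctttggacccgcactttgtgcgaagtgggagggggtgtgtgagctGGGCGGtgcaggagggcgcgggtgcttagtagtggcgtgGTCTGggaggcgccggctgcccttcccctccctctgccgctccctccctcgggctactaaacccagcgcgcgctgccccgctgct
Sned1, chr1:93235647-93235896, plus strand: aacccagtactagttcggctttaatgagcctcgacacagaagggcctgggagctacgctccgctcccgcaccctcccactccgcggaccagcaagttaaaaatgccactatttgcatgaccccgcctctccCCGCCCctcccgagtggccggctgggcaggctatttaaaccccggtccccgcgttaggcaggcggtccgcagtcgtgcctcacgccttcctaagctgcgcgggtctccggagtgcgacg
Prelp, chr1:133921402-133921651, minus strand: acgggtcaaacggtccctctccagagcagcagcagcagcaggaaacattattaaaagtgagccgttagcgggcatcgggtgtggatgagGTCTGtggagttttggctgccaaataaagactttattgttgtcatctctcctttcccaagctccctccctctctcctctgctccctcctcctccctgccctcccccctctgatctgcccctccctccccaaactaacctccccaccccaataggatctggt
CAGAC or its reverse complement stood once before Tnr and Prelp and at 2 places before Tgfbi. The window of the second Tnc start, not printed, also held it, 70 to 66 bases ahead of that start. CAGAC or its reverse complement was present in 42.2% of all 32851 promoter windows of that table, so a match there is common. GGGCGG was matched before Tnc, Tgfbi and Sned1 and in 32.7% of all windows. TATAAA was matched before Tnc, 126 to 121 bases ahead of the start, and in 12.4% of all windows. TTCNNNGAA was in 7.02%. The window of Sned1 held 23 CpG pairs and that of Tgfbi 15, against a median of 6 over all windows, and those of Tnr and Prelp held 2 and 5. A match is a run of letters and not a measured binding site.

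For most of these genes the knockdown groups of the 2 lines differed far more than the groups within a line did. Sned1 and Prelp were exceptions. Their log2 fold changes were -1.25 and -1.24 for B16 over MC38 knockdown, and -1.16 and -1.15 for c30 over MC38 knockdown. Per length, as CPM per kb of annotated exon, Sparc led in the MC38 knockdown with a mean of 371, followed by Bgn at 172, Tgfbi at 85.7 and Fn1 at 23.2. Thbs1 (3.80) and Prelp (3.07) came next, and Tnr (1.09), Tnc (1.01) and Sned1 (0.976) had ranges that overlapped. Postn came last at 0.0430 CPM per kb. In the B16 knockdown Sparc also led with 204 CPM per kb, ahead of Fn1 at 72.5, Thbs1 at 19.6 and Postn at 4.03. Prelp (1.27), Sned1 (0.397) and Bgn (0.164) followed, while Tgfbi and Tnc, which overlapped, stood at 0.0520 and 0.0266 CPM per kb. Tnr had no counts in the B16 knockdown. The 10 genes took 0.301% and 0.322% of all counts in the MC38 knockdown libraries and 0.176% and 0.180% in those of B16.

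**Figure D1:**
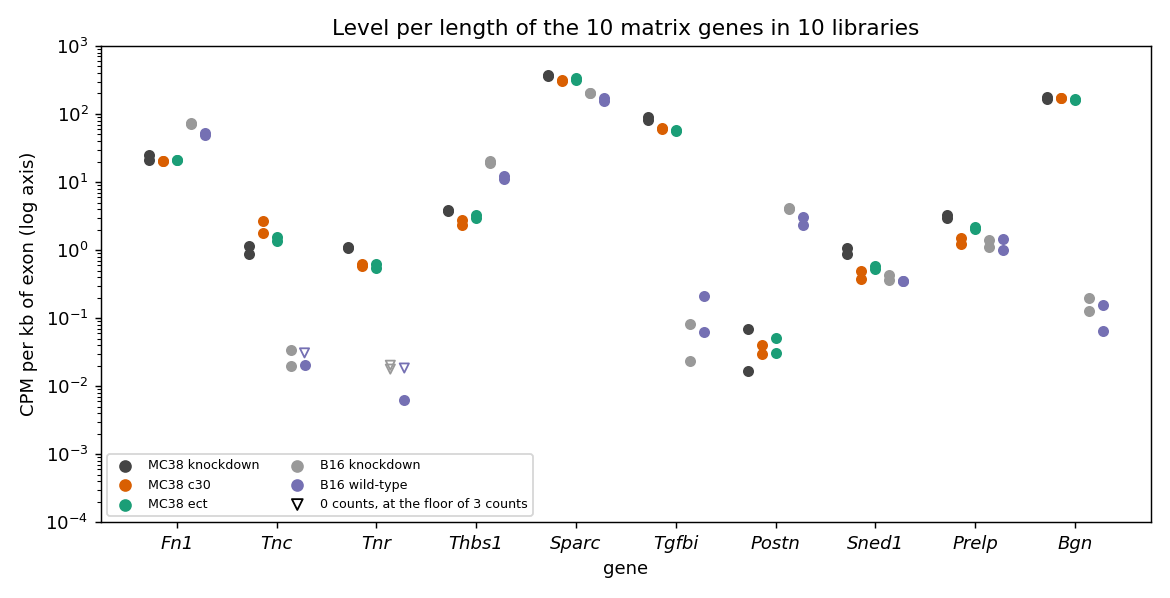
Level of each of the 10 genes in each of the 10 libraries, as CPM per kb of exon on a log axis, coloured by group, with open triangles at the floor of 3 counts for libraries with 0 counts. Tnc, Tnr, Tgfbi and Bgn are far lower in B16 and Postn is far lower in MC38, while Sparc leads in both knockdown groups.

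In 1 of the lines or the other, 5 members were nearly absent. Tgfbi, whose product is a fasciclin-domain adhesion protein, had 4281 and 4458 counts in the MC38 knockdown and 4 and 1 in the B16 knockdown, a ratio of summed counts per total of 1589 (95% exact interval 681 to 4894, counting error only). Bgn, which encodes biglycan, a chondroitin or dermatan sulphate proteoglycan, had 13898 and 14504 counts against 16 and 9, a ratio of 1033 (699 to 1596). These were among the most abundant matrix transcripts of MC38 and close to the floor in B16. Tnr encodes tenascin-R, best known from the nervous system. It had 197 and 181 counts in MC38 and 0 in both B16 libraries, so that its level in CPM was at least 53.5-fold higher in MC38, against a floor of 3 counts per library. Tnc encodes tenascin-C, an adhesion-modulating glycoprotein of wounds and tumours. Its 93 and 119 counts in MC38 compared with 2 and 3 in B16, a ratio of 38.5 (16.3 to 120). Postn, the gene of periostin, a relative of the Tgfbi product, was the reverse case, with 2 and 8 counts in MC38 and 451 and 411 in B16, a B16 to MC38 ratio of 94.8 (51.3 to 198). The libraries of the knockdown groups did not overlap for any of these 5 genes, as for 84.4% of all 16877 genes tested between them.

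The other 5 members were expressed in both lines. Fn1, which encodes fibronectin, stood at 835 and 858 CPM in the B16 knockdown and at 247 and 296 CPM in that of MC38, a log2 fold change of B16 over MC38 of 1.68 (standard error (SE) 0.07). Thbs1 encodes thrombospondin-1, which can release TGF-beta from its latent complex. Its level was 115 and 123 CPM in B16 and 22.9 and 23.3 CPM in MC38 (log2 fold change 2.41, SE 0.10). Fn1 and Thbs1 were thus higher in B16, as was Postn. Sparc, whose product binds collagen, was lower in B16, at 766 and 776 CPM against 1381 and 1430 CPM (-0.83, SE 0.06). Sned1, a glycoprotein gene with fibronectin type III repeats in its product, had 4.05 and 3.48 CPM in B16 against 8.42 and 10.1 CPM (-1.25, SE 0.23). Prelp encodes a leucine-rich repeat protein that binds heparan sulphate and collagen. It had 4.05 and 5.13 CPM against 10.5 and 11.7 CPM (-1.24, SE 0.22). In the fit over all 10 libraries 10 of 10 members were called between the knockdown groups at an edgeR adjusted p under 0.05, 3 higher in B16 and 7 lower, as were 68.2% of all genes tested (33.8% higher and 34.3% lower), and nothing is read from that count. The median log2 fold change was -1.24 over the members and -0.01 over all genes.

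In MC38, cells with either mutant form differed from the knockdown in most of these genes, chiefly by lower levels, with Tnc the exception. Sned1, Prelp and Tnr were 1.46- to 2.24-fold lower, Tgfbi 1.41- to 1.49-fold lower and Sparc 1.12- to 1.19-fold lower, whereas Tnc was 2.21-fold higher with c30 and 1.48-fold higher with ect. Bgn and Fn1 differed by at most 0.17 on the log2 scale. Of the 9 members tested, the libraries did not overlap with those of the knockdown for 8 with c30 and 8 with ect, beside 48.1% and 48.6% of all genes tested. Both comparisons use the same 2 knockdown libraries, so their values are given side by side and are not independent.

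Among the large adhesive glycoproteins, Tnc stood at 6.75 and 8.97 CPM in the knockdown, 13.8 and 20.6 CPM with c30 and 10.7 and 12.2 CPM with ect. No library of either form overlapped the knockdown, and the 2 c30 libraries were further apart than those of the other groups. The log2 fold change was 1.14 (SE 0.17) with c30 and 0.57 (SE 0.18) with ect. With ect it was 0.37 without knockdown replicate 1 and 0.47 without ect replicate 2, and no longer called in either case. The Tnc call with ect was also lost with DESeq2 and with all 10 libraries in the fit. Tnr, its relative, went the other way, with 14.3 and 13.6 CPM in the knockdown, 7.93 and 7.49 CPM with c30 and 8.08 and 7.05 CPM with ect. Its log2 fold change was -0.85 (SE 0.17) with c30 and -0.88 (SE 0.17) with ect, and the libraries of both forms lay together below those of the knockdown. Fn1 had 247 and 296 CPM in the knockdown, 242 and 239 CPM with c30 and 246 and 248 CPM with ect. Its log2 fold change was -0.17 (SE 0.05) with c30 and -0.13 (SE 0.05) with ect. These became -0.04 and 0.0018 without knockdown replicate 2, the higher of the 2 knockdown values, and -0.30 and -0.25, both called, without knockdown replicate 1. The call with c30 was also lost without either c30 library. Other fits that lost it were DESeq2, limma-voom, all 10 libraries in the fit and only the 4 libraries compared.

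Sned1 stood at 8.42 and 10.1 CPM in the knockdown, 3.61 and 4.61 CPM with c30 and 5.45 and 4.92 CPM with ect. Its log2 fold change was -1.16 (SE 0.22) with c30 and -0.83 (SE 0.21) with ect. The call with ect was lost without knockdown replicate 2 (-0.70) and without ect replicate 2 (-0.74). It was also lost with all 10 libraries in the fit. On the annotation used, 19.5% of its exon bases lie opposite to exons of Mterf4, a mitochondrial gene regulator, and the strand setting of the counting is not given. Mterf4 was at 20.8 to 21.2 CPM in the knockdown, 19.6 to 22.5 CPM with c30 and 21.0 to 28.02 CPM with ect. Its ranges with both forms overlapped that of the knockdown.

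Of the matricellular genes, Tgfbi was at 311 and 336 CPM in the knockdown, 231 and 227 CPM with c30 and 216 and 215 CPM with ect. The 4 libraries of the mutant forms fell within a narrow range below both knockdown libraries, with log2 fold changes of -0.49 (SE 0.05) and -0.57 (SE 0.05). Sparc, the most abundant member, had 1381 and 1430 CPM in the knockdown, 1185 and 1166 CPM with c30 and 1208 and 1276 CPM with ect. Its differences were small, -0.25 (SE 0.04) and -0.17 (SE 0.04) on the log2 scale, and the groups did not overlap. Without ect replicate 1 the second was -0.14 and no longer called. The second was also not called with all 10 libraries in the fit. Thbs1 had 22.9 and 23.3 CPM in the knockdown, 14.2 and 17.0 CPM with c30 and 17.9 and 20.1 CPM with ect. Its log2 fold change was -0.56 (SE 0.13) with c30 and -0.26 (SE 0.12) with ect. Without c30 replicate 1 the first of these was -0.43 and no longer called. Postn had at most 8 counts in any MC38 library and did not pass the filter on low counts.

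Of the small leucine-rich proteoglycans, Prelp was at 10.5 and 11.7 CPM in the knockdown, 4.49 and 5.48 CPM with c30 and 7.82 and 7.31 CPM with ect. The ect libraries lay between those of c30 and the knockdown, with log2 fold changes of -1.15 (SE 0.20) for c30 and -0.54 (SE 0.18) for ect. The call with ect was lost whichever single library of the comparison was left out, at -0.62 to -0.47. It was also lost with DESeq2, with all 10 libraries in the fit and without a filter on low counts. Bgn, far more abundant, stood at 1009 and 1093 CPM in the knockdown, 1064 and 1048 CPM with c30 and 966 and 1000 CPM with ect. Its log2 fold changes were 0.01 (SE 0.04) and -0.08 (SE 0.04), and its c30 libraries lay within the range of the knockdown. Both ect libraries lay below both knockdown libraries. The difference with ect was -0.14 and called without knockdown replicate 1, and -0.03 without knockdown replicate 2.

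**Figure D2:**
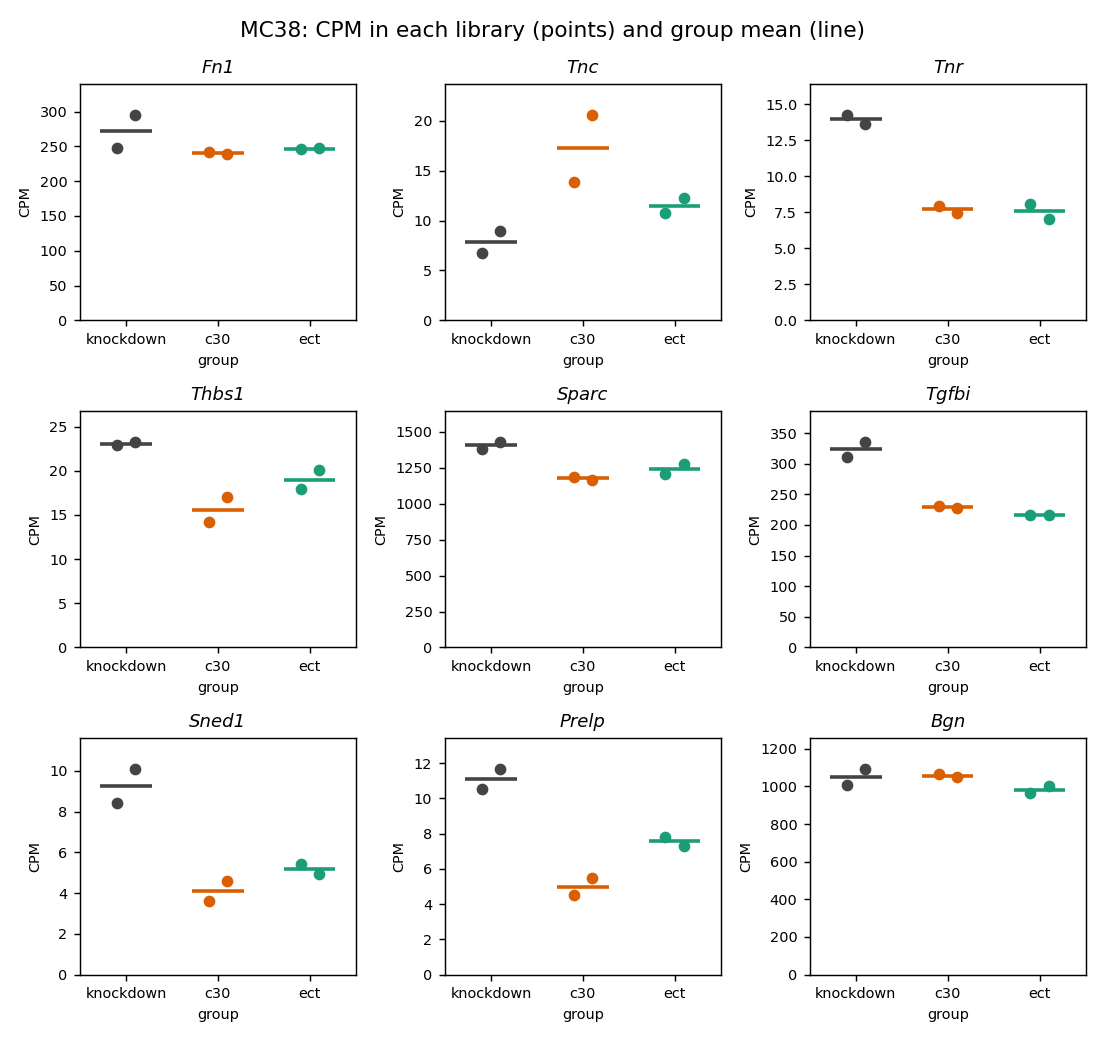
CPM of 9 genes in the 6 MC38 libraries, with 1 panel per gene, points for libraries and a line for the mean of each group of 2. Tnc is higher in both mutant groups, Tnr, Tgfbi, Sned1, Prelp, Thbs1 and Sparc are lower, and the Bgn points of c30 lie within the range of the knockdown.

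Of the 9 members tested in MC38, 8 were called with c30 at an edgeR adjusted p under 0.05, 1 higher and 7 lower, where 7.75% of all 15031 genes tested were called (3.3% higher and 4.45% lower). With ect 6 were called, 1 higher and 5 lower, where 8.16% of all genes were called (3.55% higher and 4.61% lower). The members were picked with these differences known, so nothing is read from the counts. The count with ect was 3 without ect replicate 2, 4 without ect replicate 1 and 4 without knockdown replicate 2. The median log2 fold change over the 9 genes was -0.49 with c30 and -0.26 with ect, against 0.00 over all genes in both comparisons. Of 9 markers of fibroblasts and stroma 6 reached 1 CPM in each MC38 library. All 9 summed to 414 and 429 CPM in the knockdown, 283 and 285 CPM with c30 and 289.9 and 287 CPM with ect, most of it from Col1a2, itself a matrix gene. Pdgfra was at 46.3 and 48.7 CPM in the knockdown, 34.6 and 34.0 CPM with c30 and 32.8 and 30.6 CPM with ect. Pdgfrb was at 91.1 and 97.7 CPM, 66.7 and 74.6 CPM, and 70.4 and 66.3 CPM in the same order, so that both receptor genes were lower in all 4 libraries of the mutant forms. Dcn overlapped between the groups. It had 2.47 and 1.73 CPM in the knockdown, 1.76 and 1.74 CPM with c30 and 2.46 and 1.40 CPM with ect. Lum, Thy1 and Fap were under 1 CPM in all 6 libraries. The part of these marker differences in the results was not tested.

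Set against each other, c30 and ect differed in 0 of the 9 members tested at an edgeR adjusted p under 0.05, where 0.299% of 15031 genes were called. With an unadjusted p under 0.05 there were 5 of the 9 members and 1310 of the 15031 genes. DESeq2 and limma-voom called 0 of the 9 members. The libraries of the 2 forms did not overlap for 8 of the 9 members, beside 38.7% of all genes tested. The differences furthest from 0 were those of Prelp, at -0.60 on the log2 scale for c30 over ect (SE 0.21), and Tnc, at 0.58 (SE 0.16). Without c30 replicate 1 the Tnc difference was 0.84 and was called. Tnr (0.03, SE 0.19) and Fn1 (-0.04, SE 0.05) had the differences nearest to 0. Sdc1 itself differed by 2.03 (SE 0.09). A difference that is not called does not show that the forms act alike.

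In B16, the libraries with wild-type Sdc1 lay below the knockdown in the 4 most abundant members by 1.23- to 1.65-fold. However, no gene tested was called, and this included Sdc1 itself, at a log2 fold change of 0.64 (SE 0.12). Thbs1 had 115 and 123 CPM in the knockdown and 74.1 and 67.3 CPM with the wild-type form (log2 fold change -0.72, SE 0.09). Fn1 had 835 and 858 CPM against 605 and 568 CPM (-0.50, SE 0.08). For both genes each wild-type library was well below each knockdown library. Postn, at 34.4 and 35.8 CPM against 20.3 and 26.5 CPM, had a log2 fold change of -0.56 (SE 0.14). Sparc, at 766 and 776 CPM against 641 and 593 CPM, had -0.29 (SE 0.08). These groups did not overlap either. Prelp, with 4.05 and 5.13 CPM against 5.22 and 3.59 CPM, overlapped between the groups. Sned1 had 4.05 and 3.48 CPM against 3.32 and 3.35 CPM (-0.15, SE 0.27). Bgn had 5 to 16 counts per library, and Tgfbi with at most 10, Tnc with at most 3 and Tnr with at most 1 did not pass the filter on low counts.

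**Figure D3:**
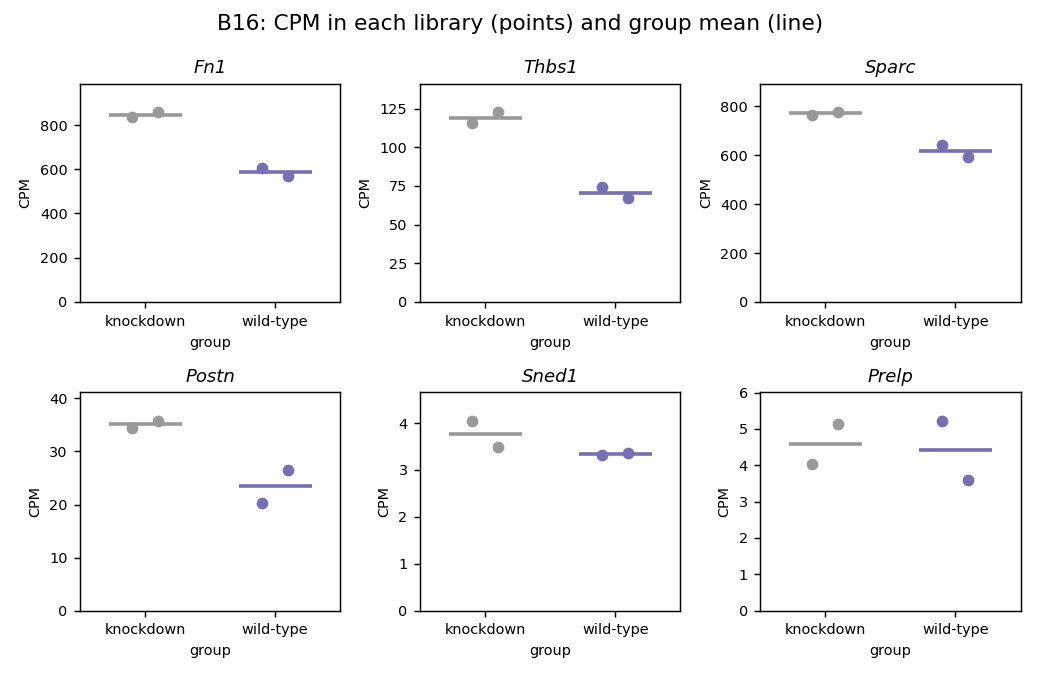
CPM of 6 genes in the 4 B16 libraries, with 1 panel per gene, points for libraries and a line for the mean of each group of 2. Fn1, Thbs1, Sparc and Postn are lower in both wild-type libraries, and Prelp overlaps between the groups.

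Of the 7 members tested in B16, 0 were called by edgeR at an adjusted p under 0.05, and of 14336 genes 0 were called (0%), with 791 genes and 4 members at an unadjusted p under 0.05. The libraries of the groups did not overlap for 5 of the 7 members, beside 34.9% of all genes tested. DESeq2 called 10 genes, of which 2 were members, and limma-voom called 0. With all 10 libraries in the fit 27 genes were called, 3 of them members. The number of genes called was 18 without knockdown replicate 1, 3 without knockdown replicate 2, 1295 without wild-type replicate 1 and 326 without wild-type replicate 2. The members called were then 1, 0, 3 and 4. The median log2 fold change over the 7 genes was -0.50, against 0.00 over all genes tested.

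**Figure D4:**
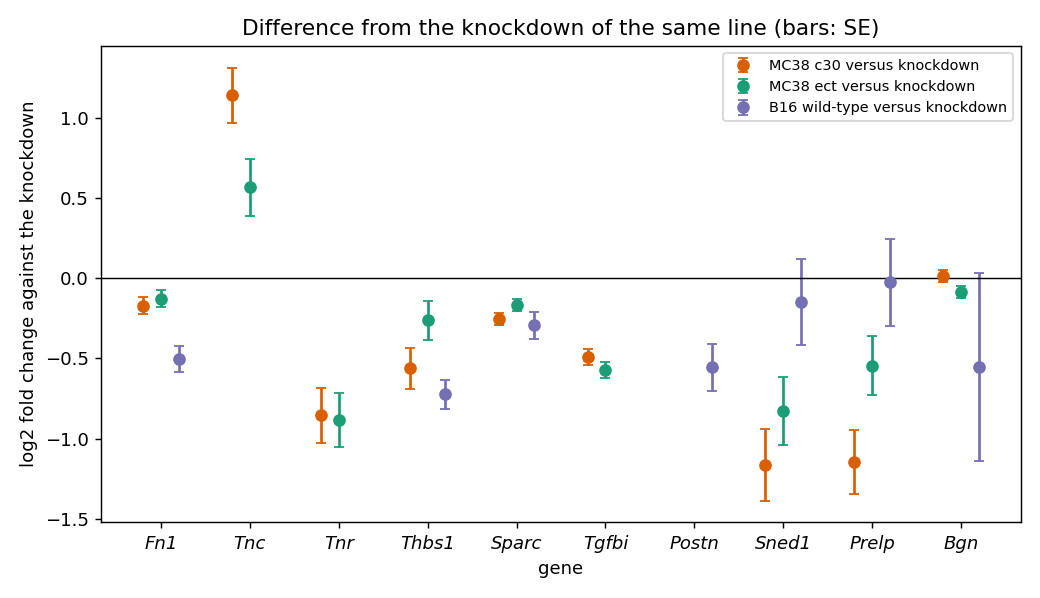
Log2 fold change of each member against the knockdown of its own line, for c30 and ect in MC38 and wild-type Sdc1 in B16, with bars for 1 SE and no point where a gene did not pass the filter on low counts. Tnc lies above 0 with c30 and ect. Fn1, Thbs1, Sparc, Sned1 and Prelp have points below 0 in all 3 comparisons, though in B16 the bars of Sned1 and Prelp cross 0.

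Other genes of the matrix were drawn from 7 lists of textbook families that together name 112 genes besides the members. The lists were chosen with earlier results of these data known, so the shares called are given as a description. In MC38 56 of them were tested. With c30, 2 rose and 7 fell (edgeR adjusted p under 0.05), and with ect 3 rose and 6 fell, which is 16.1% in each comparison beside the 7.75% and 8.16% of all genes. Their median log2 fold change was -0.13 with c30 and -0.06 with ect. With c30, Spp1, the osteopontin gene, fell by 0.36 on the log2 scale (SE 0.05, edgeR adjusted p = 6.35e-07). Fbn1, the fibrillin gene, fell by 0.29 (SE 0.04, adjusted p = 1.08e-06), and the hyaluronan-binding proteoglycan gene Vcan fell by 0.27 (SE 0.05, adjusted p = 0.000106). Ecm1, which encodes a secreted matrix glycoprotein, rose by 0.36 (SE 0.05, adjusted p = 6.67e-09), as did Tinagl1 by 0.16 (SE 0.05, adjusted p = 0.0362). Of Fbn1's exon bases 20.1% overlap an antisense gene model, and of Spp1's 18.8% a model on the same strand, so their counts are less certain.

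With ect the same lists gave Fbn1 at -0.24 (SE 0.04, edgeR adjusted p = 3.10e-05) and Spp1 at -0.28 (SE 0.05, adjusted p = 5.95e-05). Fstl1, a SPARC family member, had -0.20 (SE 0.04, adjusted p = 0.000256) with ect and -0.16 (SE 0.04, adjusted p = 0.00696) with c30. Ecm1 rose by 0.24 (SE 0.05, adjusted p = 0.000123) and Ccn1, a matricellular gene, by 0.25 (SE 0.05, adjusted p = 0.000314). By family, 0 of the 5 other small leucine-rich proteoglycan genes tested were called with either form. Of the 3 other tenascin and thrombospondin genes 1 fell with c30 and 0 with ect. In c30 against ect 0 of the 56 matrix genes were called, and in B16 0 of the 45 tested, where their median log2 fold change was -0.19.

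Receptors for these proteins and the TGF-beta pathway were drawn from 2 further lists, also chosen with earlier results known. Of 12 receptor genes tested in MC38, 3 fell with c30 and 1 with ect, where 4.45% and 4.61% of all genes tested fell. These were Lrp1, an endocytic receptor that takes up thrombospondin (-0.25, SE 0.05, edgeR adjusted p = 0.00741 with c30 and -0.34, SE 0.05, adjusted p = 0.000396 with ect), and, with c30, the integrin gene Itgb5 (-0.21, SE 0.06, adjusted p = 0.0227) and Tlr4, a biglycan receptor (-0.28, SE 0.09, adjusted p = 0.0426). Of 13 genes for TGF-beta ligands, receptors and Smads, 3 fell with c30 and 2 with ect, beside the same shares of all genes. Tgfbr2, which encodes a signalling receptor of TGF-beta, fell by 0.34 with c30 (SE 0.06, adjusted p = 4.80e-05) and by 0.36 with ect (SE 0.06, adjusted p = 1.34e-05). In B16 0 of the 16 receptor genes and 0 of the 13 TGF-beta genes were called.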

How the data were processed

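Messenger RNA libraries were read as pairs on an Illumina instrument, per the labels' protocols. The authors deposited raw counts per gene, whole numbers without normalization. The submitters' processing notes name Trimmomatic, HISAT2 2.0.5, HTSeq, featureCounts, DESeq2 and GRCm39. The annotation release and strand setting are not given in the sources used here. Symbols matched 51884 of 60676 rows. Depth was 11349447 to 15041133 counts.

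CPM is per library total, and per length uses exon lengths of GENCODE M21 (GRCm38). The edgeR 4.0.16 quasi-likelihood test (R 4.3.3, filterByExpr, TMM, robust, 2-sided) was adjusted over all genes by Benjamini-Hochberg, with calls under 0.05. The 6 MC38 libraries shared a fit, B16 used 4 and the lines 10. SE comes from the F statistic. Members and lists were chosen with earlier results of these data known. The text names the members, Sdc1 and, per list, direction and comparison, up to 2 called genes with the smallest adjusted p. Not every gene the rule names is reported here. Tlr4, Mterf4 and single markers were named after their values were seen. Alternatives were RLE scaling, 2 filters, DESeq2 1.42.0, limma-voom (limma 3.58.1), a replicate block, other sets of libraries and each library left out.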

Additional observations from a re-analysis of the deposited data

How the results depend on the processing

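Between the lines all 110 values of the 10 members kept their direction and their call. In the other comparisons 105 of 107 member values kept their direction for c30, 106 of 107 for ect, 106 of 108 for c30 against ect and 69 of 71 for B16. Calls were lost in 8 of the values for c30 and 16 for ect, and gained in 2 for ect, 1 for c30 against ect and 17 for B16. The cause of the changes was not tested. DESeq2 called 519 genes with c30, 596 with ect and 15 in c30 against ect, where edgeR called 1165, 1227 and 45. With all 10 libraries in the fit the counts were 254, 249 and 8, and with only the 4 libraries compared 72 for c30 against ect. With c30 the members called were 8 and became 6 with DESeq2, where Sned1 had no adjusted p, and 7 with limma-voom or all 10 libraries. In the ect comparison the members called were 6 and became 3 with DESeq2, where Sned1 had no adjusted p, and 2 with all 10 libraries. In B16, where edgeR called 0 genes and 0 members, the counts were 42 genes and 3 members without a filter on low counts, 10 and 2 with DESeq2, and 27 and 3 with all 10 libraries. Leaving out single libraries gave 464 to 992 genes with c30, 776 to 984 genes and 3 to 6 members with ect, 18 to 44 genes and 0 to 1 members in c30 against ect, and 3 to 1295 genes and 0 to 4 members in B16. Over those fits the log2 fold change of Bgn with c30 was -0.0472 to 0.0666, that of Fn1 with ect -0.25 to 0.0018, that of Tnr in c30 against ect -0.0853 to 0.13 and that of Prelp in B16 -0.31 to 0.21. Bgn with c30 was also -0.0011 without a filter on low counts.

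The replicate numbers were tried as a block. Same-numbered libraries did not deviate together (correlations of -0.05 to 0.02 between groups), so the numbers are not taken as pairs. With the replicate block 15 genes and 1 member, Thbs1, were called in B16, 1189 genes with c30, 1252 with ect and 55 in c30 against ect, and between the lines the count was 11373. Sned1 rests on 40 to 134 counts per library, and Postn in MC38 on 2 to 8, which limits their precision.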

Other observations

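The wider matrix differed between the lines. Of 65 further matrix genes tested, 17 were higher in the B16 knockdown and 41 lower, or 89.2%, beside 68.2% of all genes tested. Since the lists were chosen with earlier results known, the shares here and below are a description. The median log2 fold change of the 65 genes was -1.52, against -0.01 over all genes. In CPM scaled by TMM, Fbn1 stood at 5.85 ± 1.35 CPM in B16 and 579 ± 34.9 CPM in MC38 (SD, n = 2 per group; edgeR adjusted p = 2.27e-27), and Fstl1 at 4.29 ± 0.0115 CPM and 610 ± 1.44 CPM (edgeR adjusted p = 6.63e-29). The opposite held for Hmcn1, which encodes hemicentin-1, at 134 ± 2.87 CPM in B16 and 0.0729 ± 0.00174 CPM in MC38, and for Lama4, a laminin chain gene, at 115 ± 0.222 CPM and 0.330 ± 0.162 CPM (edgeR adjusted p = 6.37e-25 and 4.11e-24). Sparcl1, a relative of Sparc, was at 63.2 ± 3.65 CPM in B16 and 0.148 ± 0.210 CPM in MC38 (edgeR adjusted p = 1.00e-20). The MC38 means of Hmcn1 and Sparcl1 were below the floor of 3 counts, at 0.218 and 0.226 CPM in the 2 libraries. Their SD in MC38 therefore says little about spread.

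Of 16 receptor genes tested 6 were higher in B16 and 6 lower, where 33.8% of all genes tested were higher and 34.3% lower. The fibronectin receptor chain gene Itga5 was at 17.1 ± 0.299 CPM in B16 and 130 ± 5.23 CPM in MC38, whereas Itga4, another fibronectin receptor chain gene, was at 68.4 ± 4.40 CPM and 0.256 ± 0.0576 CPM (SD, n = 2 per group; edgeR adjusted p = 4.59e-21 and 3.36e-22). Itga9, a chain of a tenascin-C receptor, was at 16.3 ± 2.33 CPM in B16 and 0.0371 ± 0.0524 CPM in MC38 (edgeR adjusted p = 8.99e-15). Its MC38 mean was below the floor of 3 counts per library. Of 13 genes for TGF-beta ligands, receptors and Smads 12 were lower in B16 and 0 higher, beside those shares of all genes, among them Tgfb1 at 1.43 ± 0.295 CPM against 24.1 ± 1.71 CPM (edgeR adjusted p = 1.16e-15).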
